A study of Mus musculus with 4 samples.

Results

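Sox9, Sox4, Cd24a, Tspan8, Spp1, Prom1 and Epcam are genes used to mark bile duct cells and liver progenitors, and their RNA signal was read from every probe set that the annotation of the Affymetrix mouse genome array gives to one of these symbols and to no other. Of the 7 genes, 6 had such probe sets, 22 of 45101 on the array, and they stand among 18193 genes named in this way. Spp1 was not analysed here. Of the 6 genes, 5 passed on 1 array or more a signal floor, set at 20% of each array's trimmed mean, and Prom1 did not.

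In the developing liver, bipotent hepatoblasts give rise to hepatocytes and to cholangiocytes, the cells that line bile ducts. NOTCH signals from portal mesenchyme drive the biliary choice, and SOX9, a transcription factor of the SOXE group, is among the first proteins to mark the ductal plate, while SOX4, of the SOXC group, acts beside it in bile duct formation in the mouse. CD24, EPCAM, prominin-1 and tetraspanin-8 are surface proteins, several of which are used to sort progenitor-like cells from liver.

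The series holds cultures of mouse fetal liver progenitors that lack p53, with 1 array each for H-RasV12 (H-Ras locked in its active form), myr-Akt (the kinase AKT anchored to membranes by a myristoyl group), c-Myc (a transcription factor) and non-transformed cells. All cultures, the non-transformed one included, are p53-/- and were kept in medium with 10% serum, 20 ng/ml EGF, 50 ng/ml HGF, dexamethasone, nicotinic acid, 2-mercaptoethanol, ITS supplement and antibiotics. The sources used here do not give the vector of each oncogene, the number of clones behind each culture or the age of the embryos. With 1 array per culture there is no spread between replicates and no test, so each difference below is one between arrays, and a gene was called where it reached 2-fold on signals set to at least the floor.

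On these arrays 9927, 9512 and 9492 genes passed the floor in H-RasV12, myr-Akt and c-Myc cells, against 10216 in non-transformed cells, and for the Gapdh control, 5′ signal over 3′ signal lay between 1.24 and 1.29. The Myc probe set read 1747, 639.7 and 420.6 in H-RasV12, myr-Akt and c-Myc cells, against 2285 in non-transformed cells, so its lowest signal was on the array labelled c-Myc. The Akt1 probe set read 2760, 2834 and 2991 in H-RasV12, myr-Akt and c-Myc cells, against 1870 in non-transformed cells. Its highest signal was thus also on the array labelled c-Myc, not on that labelled myr-Akt. The sources used here do not say whether either probe set can detect an introduced sequence. Directions for the myr-Akt and c-Myc cultures rest on their labels.

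The label of the group was set against other markers of the same cells. Of 28 further biliary markers, 24 had a probe set and 9 passed the floor somewhere. Cftr, Onecut1, Pkhd1, Sox17, Cldn4 and Cldn7 were under the floor on every array. Of the hepatocyte markers, Afp was above the floor on the H-RasV12 array alone, at 568.3, against 13.0 in non-transformed cells. All 8 mesothelial markers passed the floor somewhere, among them Upk3b, a uroplakin of mesothelium, at 1299, 12838 and 11557 in H-RasV12, myr-Akt and c-Myc cells, against 15167 in non-transformed cells. The cultures thus carried part of a biliary and progenitor marker set beside mesothelial and mesenchymal transcripts.

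The 5 measured genes had no common direction. In H-RasV12 cells 2 of 5, Cd24a and Sox9, were at least 2-fold higher than in non-transformed cells, where 2.08% of all 10679 measured genes were, and 0 of 5 were lower, against 6.27% of all genes. In myr-Akt cells Cd24a was higher (1 of 5, against 4.9% of all genes), and Sox9 and Tspan8 were lower (2 of 5, against 12.7%). In c-Myc cells 0 of 5 were higher, against 4.42% of all genes, and the same 2 genes, Sox9 and Tspan8, were lower, against 11.3%. With 5 genes these shares describe the members and carry no test. The 3 comparisons share 1 non-transformed array. The median log2 difference of the 5 genes was 0.20, -0.02 and -0.16 in H-RasV12, myr-Akt and c-Myc cells. Medians over all measured genes were 0.003, -0.02 and 0. The c-Myc value of -0.16 is that of Epcam, a bound with its c-Myc signal at the floor.

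**Figure D1:**
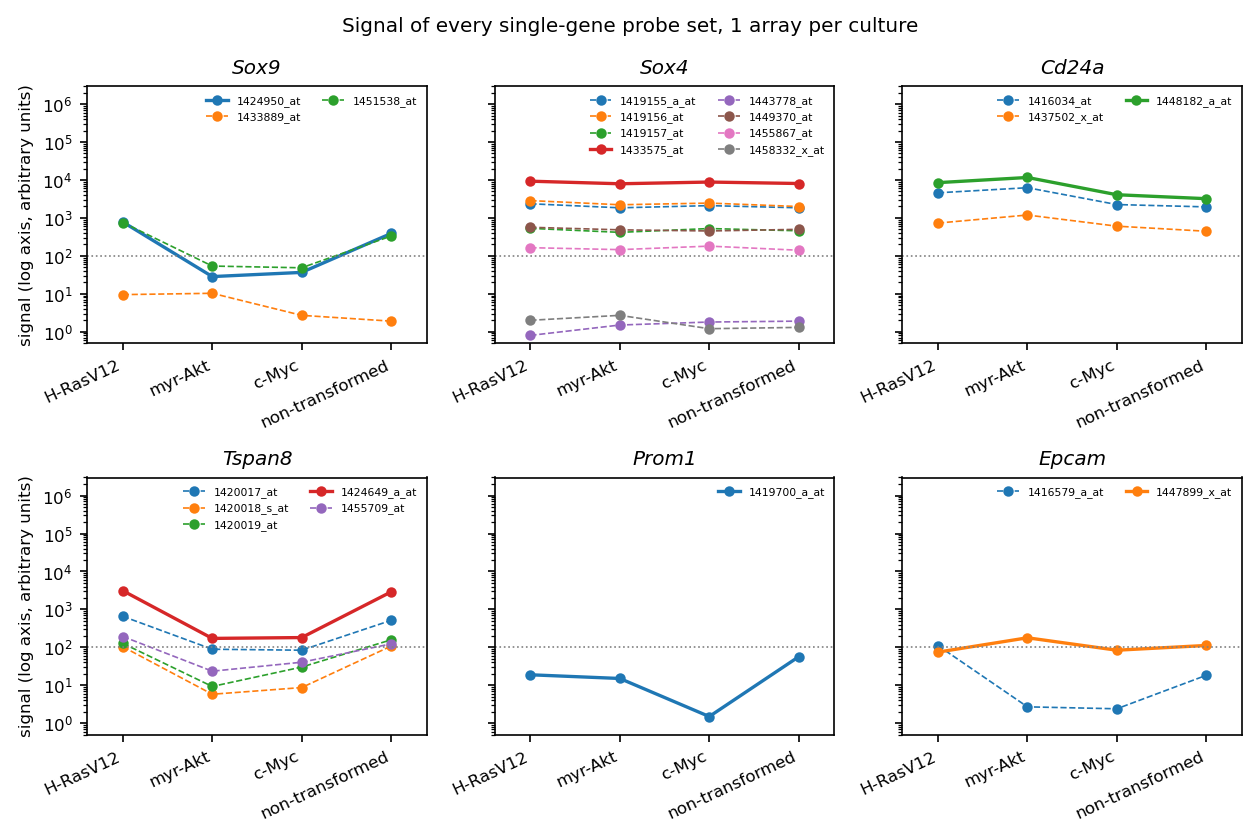
Signal on a log axis (arbitrary units) of all 22 single-gene probe sets of the 6 genes, with 1 point per array. The solid line is the brightest probe set of each gene, dashed lines the others, and the dotted line the floor. Sox9 and Tspan8 sit low in myr-Akt and c-Myc cells, Sox4 is level, Cd24a is highest in myr-Akt cells, and Prom1 stays under the floor.

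Sox9 directs the early biliary program and, in cartilage, the genes of its matrix. Its brighter probe set, 1424950_at, read 778.9, 28.4 and 36.6 in H-RasV12, myr-Akt and c-Myc cells, against 388.4 in non-transformed cells. The second, 1451538_at, read 753.9, 53.8 and 48.4 in these 3 cultures, against 332.1 in non-transformed cells. Sox9 was thus above the floor in H-RasV12 and non-transformed cells and under it in the other pair. By the brighter set it was 2.01 times higher in H-RasV12 than in non-transformed cells, and by the second 2.27 times. In myr-Akt and in c-Myc cells it was at least 3.88 times lower by the first set and at least 3.32 times by the second. The third, 1433889_at, read between 1.9 and 10.3 and was under the floor on every array, so it gave no difference.

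Between transformed cultures, Sox9 was at least 7.79 times higher in H-RasV12 than in myr-Akt cells and at least 7.79 times higher than in c-Myc cells, the same bound because both stood at the floor. No order can be given between myr-Akt and c-Myc. The H-RasV12 difference from non-transformed cells lies at the edge of the 2-fold call, and with log2(signal + 50) in place of the floor it was 0.92.

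Tspan8 encodes a tetraspanin, a class of small membrane proteins that gather integrins and other receptors into clusters. Its brightest probe set, 1424649_a_at, read 3105, 172.0 and 181.0 in H-RasV12, myr-Akt and c-Myc cells, against 2892 in non-transformed cells, above the floor on all 4 arrays. Against non-transformed cells, Tspan8 was 16.8 times lower in myr-Akt and 16.0 times lower in c-Myc cells, and 1.07 times higher in H-RasV12 cells. Averaged over its 5 probe sets, the log2 difference was -1.50 in myr-Akt and -1.49 in c-Myc cells, in place of -4.07 and -4.00. By the brightest set, among 10679 measured genes, counted from the lowest, Tspan8 stood at place 17 in myr-Akt and place 24 in c-Myc cells. Probe set 1420017_at, the next brightest, read 655.3, 89.2 and 84.0 in H-RasV12, myr-Akt and c-Myc cells, against 513.7 in non-transformed cells, a bound of at least 5.14 times lower for both. The remaining 3 were dim, at 103.4 to 193.0 in H-RasV12 and 107.7 to 157.7 in non-transformed cells, and under the floor in myr-Akt and c-Myc cells, so their bounds fell short of 2-fold. All 5 probe sets were lower in myr-Akt and in c-Myc than in non-transformed cells, whereas for H-RasV12 3 were above and 2 below, between -0.31 and 0.65 on the log2 scale.

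By its brightest probe set, Tspan8 spanned 18.1-fold over the 4 arrays, between H-RasV12 and myr-Akt cells. It was 17.2 times higher in H-RasV12 than in c-Myc cells. Between myr-Akt and c-Myc cells it differed by -0.07 (log2), under the median gap of 0.16 between the differences that a gene's 2 brightest probe sets gave in that comparison (3889 genes with both above the floor on all arrays). Such gaps are a measure of technical disagreement on the same arrays and hold nothing of the spread between cultures.

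The promoters of Tspan8, which spanned 18.1-fold by its brightest probe set, and of Sox4, which spanned 1.17-fold by its own, are shown as RefSeq gives them for GRCm38.p6, from 250 bases before to 50 after the gene's start, at chr10:115817034-115817333 on the plus strand and chr13:28953650-28953949 on the minus strand. Capitals mark matches, on either strand, to any of 6 short motifs: the MYC and MAX E-box CACGTG, the AP-1 site TGANTCA, the FOXO site GTAAACA, the RBPJ site TGGGAA through which NOTCH acts, the SOX core AACAAT and the TEAD site GGAATG.
Tspan8: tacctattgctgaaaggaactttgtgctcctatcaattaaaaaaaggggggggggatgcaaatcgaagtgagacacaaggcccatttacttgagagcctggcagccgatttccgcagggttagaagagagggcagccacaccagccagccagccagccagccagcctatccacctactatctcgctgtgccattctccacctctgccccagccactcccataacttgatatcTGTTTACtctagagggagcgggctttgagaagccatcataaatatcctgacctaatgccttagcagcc
Sox4: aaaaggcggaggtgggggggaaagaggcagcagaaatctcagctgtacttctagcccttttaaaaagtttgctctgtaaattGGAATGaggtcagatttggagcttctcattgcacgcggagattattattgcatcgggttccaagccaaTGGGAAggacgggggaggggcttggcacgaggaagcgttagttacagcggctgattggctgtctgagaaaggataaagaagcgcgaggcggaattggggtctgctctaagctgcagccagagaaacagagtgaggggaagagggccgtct
The Tspan8 window held 1 match, to the FOXO letters, beginning 18 bases before the start and read on the opposite strand, and 3.65% of 32851 mouse promoters of this length hold that motif. The Sox4 window held the RBPJ letters, found in 25.6% of promoters, and the TEAD letters, found in 14.7%. The Epcam window, not printed, held the E-box, found in 7.15%, and AP-1 letters, found in 7.81%, and RBPJ letters lay in the Prom1 windows. The SOX core, in 10.7% of promoters, was in none of these windows. A match describes the letters and is no evidence of binding.

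Cd24a encodes a small glycan-rich protein held in the membrane by a lipid anchor, used as a surface marker of progenitor cells. Its brightest probe set, 1448182_a_at, read 8502, 11635 and 4081 in H-RasV12, myr-Akt and c-Myc cells, against 3212 in non-transformed cells. Set 1416034_at read 4590, 6250 and 2248 in H-RasV12, myr-Akt and c-Myc cells, against 1952 in non-transformed cells, and 1437502_x_at read 730.9, 1191 and 605.4 in these cultures, against 445.1 in non-transformed cells. Cd24a was lowest in non-transformed and highest in myr-Akt cells by all 3 probe sets. By the brightest it was 2.65 times higher in H-RasV12, 3.62 times in myr-Akt and 1.27 times in c-Myc cells than in non-transformed cells. Counted from the highest of 10679 genes, that was place 81, 52 and 2838 in H-RasV12, myr-Akt and c-Myc cells.

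The dimmest of the Cd24a probe sets, whose name ending marks possible binding to more than 1 transcript, gave smaller differences. It was 1.64 times higher in H-RasV12 and 2.68 times in myr-Akt cells, so H-RasV12 passed 2-fold by 2 of 3 sets and myr-Akt by all 3. Between cultures, Cd24a was 2.85 times higher in myr-Akt than in c-Myc cells, a comparison with 1.53% of all genes past 2-fold upward and 2.01% downward. It was 2.08 times higher in H-RasV12 than in c-Myc cells, and 0.73 times the myr-Akt level in H-RasV12 cells. The log2 difference between H-RasV12 and c-Myc ranged from 0.27 to 1.06 over the 3 sets. The order from high to low was thus myr-Akt, H-RasV12, c-Myc and non-transformed, but not every step exceeds the disagreement between probe sets. H-RasV12 over myr-Akt was -0.45 (log2) by the brightest set, smaller than the 90th percentile of that gap, 0.60. By the dimmest set it was -0.70. H-RasV12 over c-Myc was 0.27 by the dimmest set, within the percentile there, 0.61. The last step, of 0.20 to 0.44 (log2), is within the 90th percentile of the gap between probe sets in that comparison, 0.62.

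Blood cells of fetal liver also carry CD24. Of 15 haematopoietic markers with a probe set, 4 passed the floor somewhere. The list's summed signal was 1154, 731.6 and 571.4 in H-RasV12, myr-Akt and c-Myc cells, against 785.3 in non-transformed cells. Ptprc, the pan-leukocyte marker CD45, read at most 5.1, and Adgre1, which encodes the macrophage marker F4/80, at most 40.3, both under the floor on every array. Csf1r, of the same list, read 145.4, 119.1 and 54.1 in H-RasV12, myr-Akt and c-Myc cells, against 78.4 in non-transformed cells. It was above the floor in H-RasV12 and myr-Akt cells alone, where Cd24a was highest. Cd68 read 131.4, 110.2 and 87.7 in H-RasV12, myr-Akt and c-Myc cells, against 122.1 in non-transformed cells. In H-RasV12 cells 1 of the 4 was higher, Cd14, a monocyte receptor gene, by 2.53 times, and in myr-Akt and c-Myc cells 0 passed 2-fold. Of all genes, 2.08% were higher in H-RasV12 cells. In myr-Akt and c-Myc cells 4.9% and 4.42% were higher, and 12.7% and 11.3% lower. The part of the haematopoietic markers in the Cd24a differences was not tested.

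Sox4 encodes a transcription factor that is present in many progenitor cells. Its brightest probe set, 1433575_at, read 9286, 7940 and 8813 in H-RasV12, myr-Akt and c-Myc cells, against 8068 in non-transformed cells, a span of 1.17-fold. The other 5 above the floor, read at 140.5 to 2858 over all arrays, placed no difference from non-transformed cells past 2-fold. Their log2 differences, with the brightest set included, ran from 0.18 to 0.52 for H-RasV12, from -0.14 to 0.15 for myr-Akt (4 sets below 0 and 2 above) and from -0.14 to 0.36 for c-Myc cells. All 6 were higher in H-RasV12 cells, by up to 1.43-fold. The 90th percentile of the gap between a gene's probe sets was 0.55 in that comparison, so a difference of this size cannot be told from disagreement between probe sets. A further 2 probe sets, 1443778_at and 1458332_x_at, read 2.7 or less.

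Epcam encodes an adhesion protein of epithelia that marks cholangiocytes and hepatic progenitors. Its 2 probe sets lay near the floor and disagreed. Set 1447899_x_at read 74.9, 178.6 and 84.0 in H-RasV12, myr-Akt and c-Myc cells, against 112.1 in non-transformed cells. Set 1416579_a_at read 110.8, 2.7 and 2.4 in H-RasV12, myr-Akt and c-Myc cells, against 18.3 in non-transformed cells. The first, the brighter set, whose name ending marks possible binding to more than 1 transcript, was highest in myr-Akt cells. The second was highest in H-RasV12 cells, the only array on which it passed the floor. Neither passed 2-fold in any of the 6 comparisons with the floor in place. The Epcam signal gives no settled order between the cultures.

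Prom1 encodes prominin-1 (CD133), a protein of membrane protrusions. Its only probe set, 1419700_a_at, read 18.9, 15.1 and 1.5 in H-RasV12, myr-Akt and c-Myc cells, against 56.4 in non-transformed cells. All 4 values were under the floor, so they have no order, and no difference was computed.

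**Figure D2:**
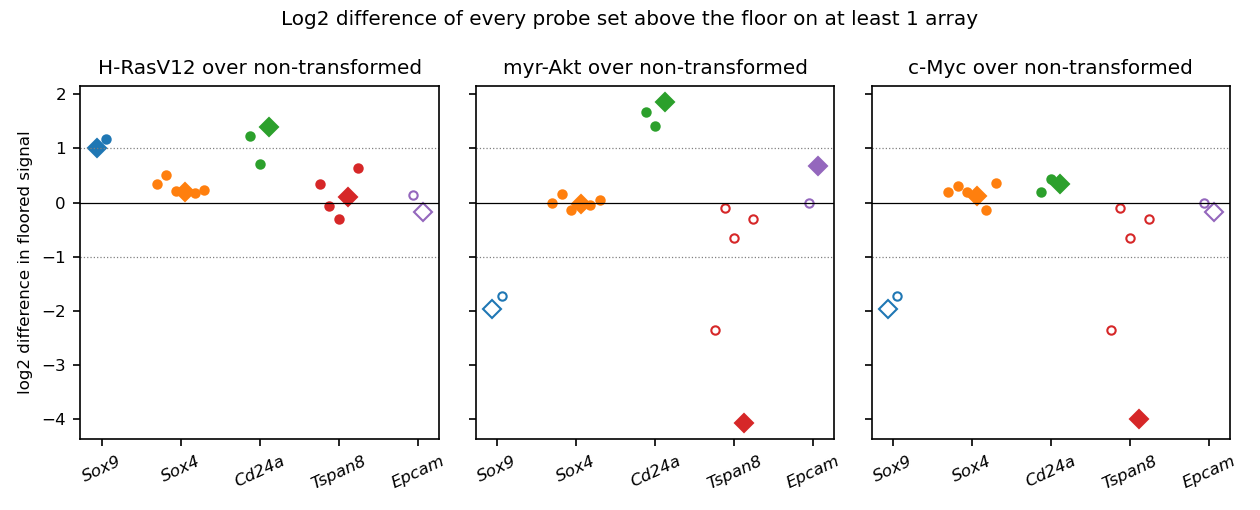
Log2 difference in floored signal for each probe set above the floor on at least 1 array, in the 3 comparisons with non-transformed cells. Diamonds are each gene's brightest probe set, circles the others, open symbols are bounds with 1 array or both at the floor, and dotted lines mark 2-fold. Cd24a lies above 0 in all 3 panels, and Sox9 is above 0 in H-RasV12 and below it in myr-Akt and c-Myc cells.

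The transformed cultures were also set directly against each other. H-RasV12 over myr-Akt cells had Sox9 and Tspan8 at least 2-fold higher (2 of 5, against 9.35% of all genes) and 0 of 5 lower, against 4.38%. H-RasV12 over c-Myc cells had Sox9, Tspan8 and Cd24a at least 2-fold higher (3 of 5, against 8.76%) and 0 of 5 lower, against 5.11%. The myr-Akt over c-Myc comparison had Cd24a alone at least 2-fold higher (1 of 5, against 1.53% of all genes) and 0 of 5 lower, against 2.01%. These comparisons share arrays with one another and with those above.

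**Figure D3:**
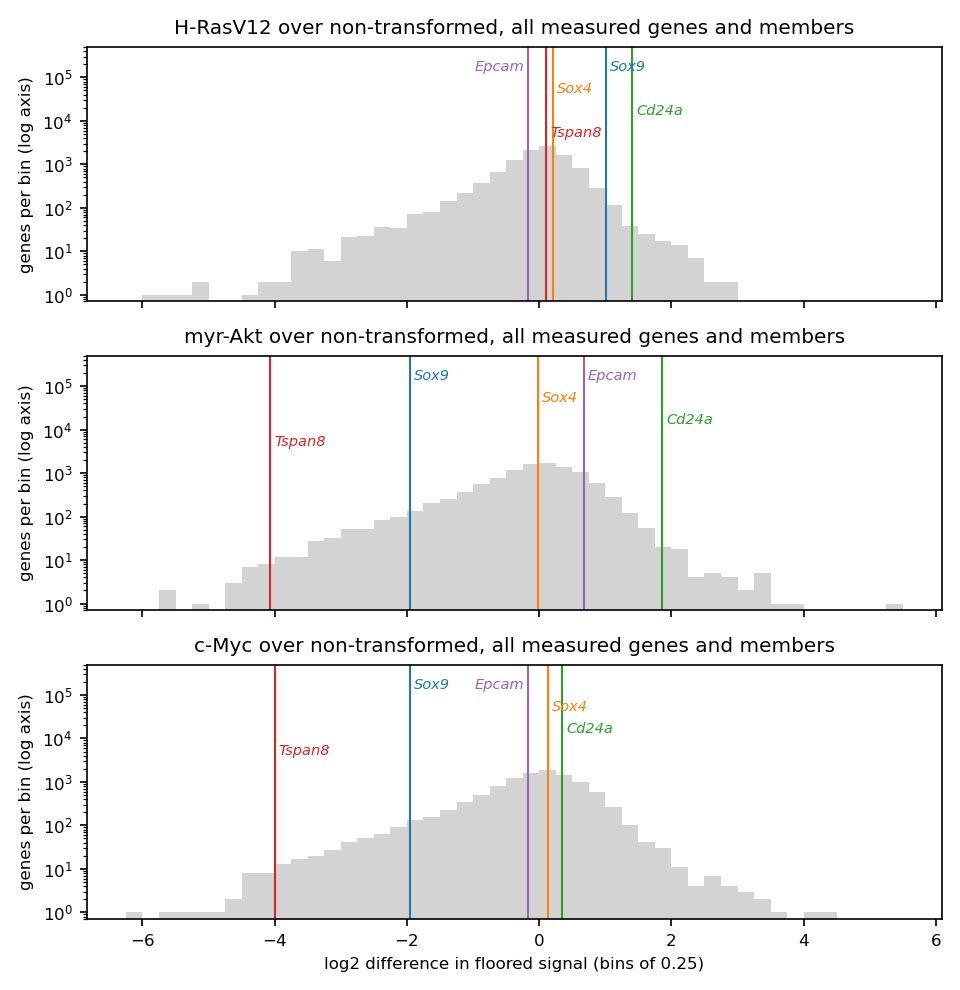
Number of genes per bin of log2 difference (grey, log axis) for all 10679 measured genes in each comparison with non-transformed cells, with coloured lines at the brightest probe set of each member. Tspan8 lies in the far lower tail in myr-Akt and c-Myc cells and near 0 in H-RasV12 cells.

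The genes whose signals ran most like those of a member over the 4 arrays were taken by the smallest root mean square difference between log2 signals centred on each gene's mean. For Sox9 they were Osbpl6, an oxysterol-binding protein gene (0.10), Gprc5b, an orphan receptor gene (0.11), and Bcl2, an inhibitor of apoptosis (0.11), among 8771 candidates above the floor on all arrays. Bcl2 read 1244, 145.0 and 176.5 in H-RasV12, myr-Akt and c-Myc cells, against 581.7 in non-transformed cells. The Sox9 profile itself holds 2 arrays at the floor. For Tspan8 they were Dpysl3, a regulator of the cytoskeleton (0.17), Thbd, the thrombomodulin gene (0.26), and Emp1, an epithelial membrane protein gene (0.28). Emp1 read 8704, 554.6 and 559.3 in H-RasV12, myr-Akt and c-Myc cells, against 5694 in non-transformed cells.

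For Cd24a the nearest was Gclc, which encodes the catalytic part of glutamate-cysteine ligase, needed to make glutathione, (0.18), followed by Nqo1, a quinone reductase (0.25), and Abcc4, an efflux transporter (0.27). Gclc read 4424, 5728 and 2582 in H-RasV12, myr-Akt and c-Myc cells, against 2109 in non-transformed cells. Sox4 and Epcam spanned less than 2-fold and were given no neighbours. Likeness over 4 arrays is a description of these profiles.

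**Figure D4:**
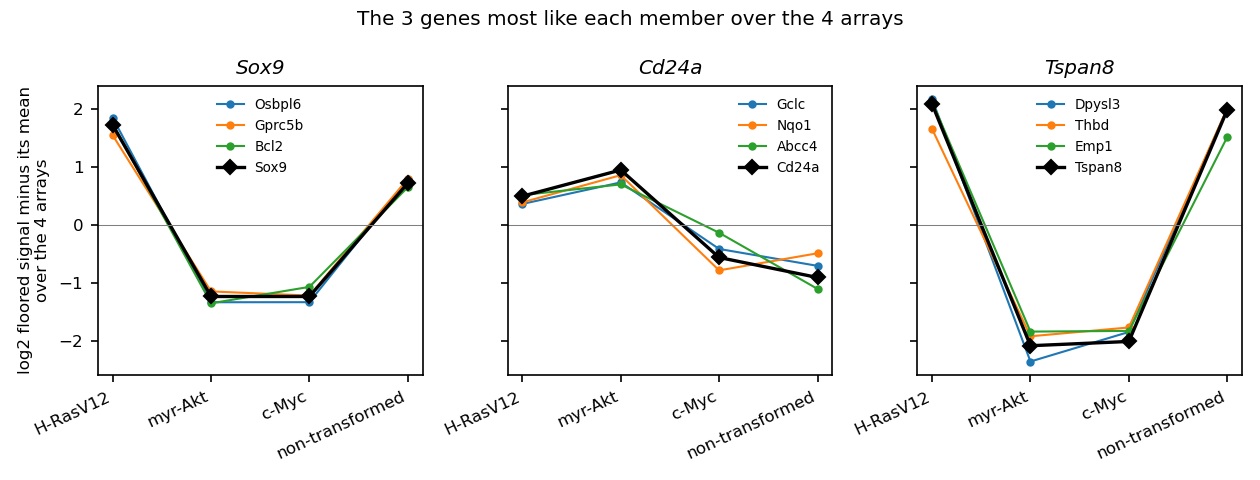
Log2 floored signal minus its mean over the 4 arrays for Sox9, Cd24a and Tspan8 (black diamonds) and the 3 genes nearest to each. Sox9 and Tspan8 dip in myr-Akt and c-Myc cells, and Cd24a peaks in myr-Akt cells.

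Members of the NOTCH pathway, which acts before Sox9 in bile duct formation, were read in the same way. Of 36 genes listed, 24 were measured. In H-RasV12 cells 1 was at least 2-fold higher and 1 lower, in myr-Akt cells 1 and 5, and in c-Myc cells 3 and 1, with medians of -0.26, -0.12 and 0.04. Of all measured genes, 2.08% were higher and 6.27% lower in H-RasV12 cells, 4.9% and 12.7% in myr-Akt, and 4.42% and 11.3% in c-Myc cells. With so few genes the NOTCH counts carry no test. The receptor gene Notch1 read 233.0, 113.2 and 122.2 in H-RasV12, myr-Akt and c-Myc cells, against 268.4 in non-transformed cells. The ligand gene Jag2 was 2.49 times higher in c-Myc than in non-transformed cells. Hey1, a repressor that NOTCH induces, was 4.04 times higher in myr-Akt and 2.10 times higher in c-Myc cells, where Sox9 was lower. Nrarp, a feedback inhibitor that NOTCH also induces, was 2.81 times higher in H-RasV12 cells, where Sox9 was higher, with signals of 544.3, 144.4 and 242.8 in H-RasV12, myr-Akt and c-Myc cells, against 193.5 in non-transformed cells.

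Of 20 genes listed as SOX9 targets, most of them matrix genes of cartilage but also genes such as Sox5, Bmpr1b, Opn3 and Pdpn, 8 were measured. In H-RasV12 cells 1 was at least 2-fold higher and 2 lower, in myr-Akt cells 2 and 4, and in c-Myc cells 0 and 4. Over all genes, 2.08% were higher and 6.27% lower in H-RasV12, 4.9% and 12.7% in myr-Akt, and 4.42% and 11.3% in c-Myc cells. The 2 higher in myr-Akt cells were Bmpr1b and Opn3, which encode no matrix protein. Col2a1, the cartilage collagen gene that SOX9 activates, was above the floor in H-RasV12 cells alone, at 242.2 against 54.6 in non-transformed cells, at least 2.42 times higher. Col11a1, another such collagen gene, read 4271, 1252 and 2203 in H-RasV12, myr-Akt and c-Myc cells, against 8084 in non-transformed cells. It was 1.89 times lower in H-RasV12 cells, where Sox9 was higher. In myr-Akt and c-Myc cells, where Sox9 was lower, it was 6.46 and 3.67 times lower. Col27a1 was 2.13, 2.39 and 2.37 times lower in H-RasV12, myr-Akt and c-Myc cells. The part of Sox9 in these differences was not tested.

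Among 18 other Sox genes, 4 were measured. Sox21, a SOXB2 repressor, read 337.8, 126.0 and 136.3 in H-RasV12, myr-Akt and c-Myc cells, against 487.5 in non-transformed cells, 3.87 and 3.58 times lower in myr-Akt and c-Myc cells. The SOXC genes Sox11 and Sox12, relatives of Sox4, stayed within 2-fold in all 3 comparisons with non-transformed cells, Sox11 reading 905.6, 1592 and 1726 in H-RasV12, myr-Akt and c-Myc cells, against 1022 in non-transformed cells. Of 13 measured targets and partners of SOX4, 1 was higher in H-RasV12 cells (Tubb3, a tubulin gene, 2.05 times) and 0 were lower, against 2.08% and 6.27% of all genes. In myr-Akt cells 0 were higher and 3 lower, where 12.7% of all genes were lower, and in c-Myc cells 0 and 4, where 11.3% were. Vcam1, an adhesion receptor, was 7.47 and 12.9 times lower in myr-Akt and c-Myc cells. The Sox4 signal differed there by 1.09-fold or less by its brightest probe set and by up to 1.28-fold by the others.

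Of 18 tetraspanin genes measured beside Tspan8, 4 were at least 2-fold lower in myr-Akt and 5 in c-Myc cells, with 1 higher in each. Over all genes, 12.7% and 11.3% were lower and 4.9% and 4.42% higher in these cultures. Cd9, a tetraspanin partner of integrins, read 6284, 1906 and 1484 in H-RasV12, myr-Akt and c-Myc cells, against 4132 in non-transformed cells. Tspan2 was 4.59 and 4.92 times lower in myr-Akt and c-Myc cells, and Tspan17 at least 5.55 times lower in both. In H-RasV12 cells 3 tetraspanins were lower, against 6.27% of all genes. Among them was Upk1b, a uroplakin that is also a mesothelial marker, 3.93 times lower.

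Receptors and processing factors of osteopontin, the product of Spp1, were measured for 13 of 17 genes. At least 2-fold lower were 3 in H-RasV12, 8 in myr-Akt and 7 in c-Myc cells, with 1 higher in H-RasV12 cells. Of all measured genes, 6.27%, 12.7% and 11.3% were lower in these cultures, and 2.08% were higher in H-RasV12 cells. Cd44, which binds osteopontin and hyaluronan and is itself a progenitor marker, read 15410, 1466 and 1471 in H-RasV12, myr-Akt and c-Myc cells, against 10918 in non-transformed cells. The integrin gene Itgb3 was 2.08 times higher in H-RasV12 cells, 3.02 times lower in myr-Akt and 4.87 times lower in c-Myc cells. Itga5 was 4.74 and 4.31 times lower in myr-Akt and c-Myc cells. Itga8, 1 of the 3 genes lower in H-RasV12 cells, ran differently. It read 386.8 in non-transformed cells, was under the floor in each transformed culture, and was at least 3.87 times lower in each.

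Of the 9 other biliary markers measured, 1 was lower in H-RasV12, 1 lower in myr-Akt and 1 higher in c-Myc cells. The same shares of all genes were 6.27%, 12.7% and 4.42%. Krt7, a biliary keratin, read 506.9, 445.3 and 1566 in H-RasV12, myr-Akt and c-Myc cells, against 1620 in non-transformed cells, lower in both H-RasV12 cells, where Sox9 was highest, and myr-Akt cells, where it was under the floor. In c-Myc cells, where Sox9 was also under the floor, Krt7 was 1.03 times lower. Krt19, another biliary keratin, named after its values were seen, read 3786, 1493 and 1804 in H-RasV12, myr-Akt and c-Myc cells, against 2322 in non-transformed cells. It was highest in H-RasV12 and lowest in myr-Akt cells, within 2-fold of non-transformed cells in each culture. Aqp1, a water channel of bile duct cells, was at least 5.47 times higher in c-Myc cells, at 547.3 against 5.8 in non-transformed cells. Krt23 and Anxa13 were above the floor in H-RasV12 cells alone, at 187.6 and 179.9, against 21.5 and 17.7 in non-transformed cells, short of 2-fold over the floor.

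Of 19 measured progenitor and hepatoblast markers, 5 were higher and 3 lower in H-RasV12 cells, 0 and 7 in myr-Akt cells, and 1 and 7 in c-Myc cells. Over all genes the shares higher and lower were 2.08% and 6.27%, 4.9% and 12.7%, and 4.42% and 11.3%. Dlk1, a surface protein of hepatoblasts, read 262.4, 145.1 and 1898 in H-RasV12, myr-Akt and c-Myc cells, against 116.7 in non-transformed cells. Gpc3, of the same list, ran differently, at 311.6, 1889.5 and 3904 in these cultures, against 3575.6 in non-transformed cells. It was 11.5 times lower in H-RasV12 cells. Ncam1, an adhesion molecule of reactive ductules, was 9.08 and 9.25 times lower in myr-Akt and c-Myc cells. Of 10 measured partners and relatives of EPCAM and prominin-1, 1 was lower in each transformed culture, Bace1, a protease gene, in H-RasV12 cells and Cldn3, a tight junction gene, in myr-Akt and c-Myc cells. In H-RasV12 and c-Myc cells 1 was higher, and the shares of all genes are those given above for these cultures. The protease inhibitor gene Spint2 was 3.29 times higher in c-Myc cells.

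**Figure D5:**
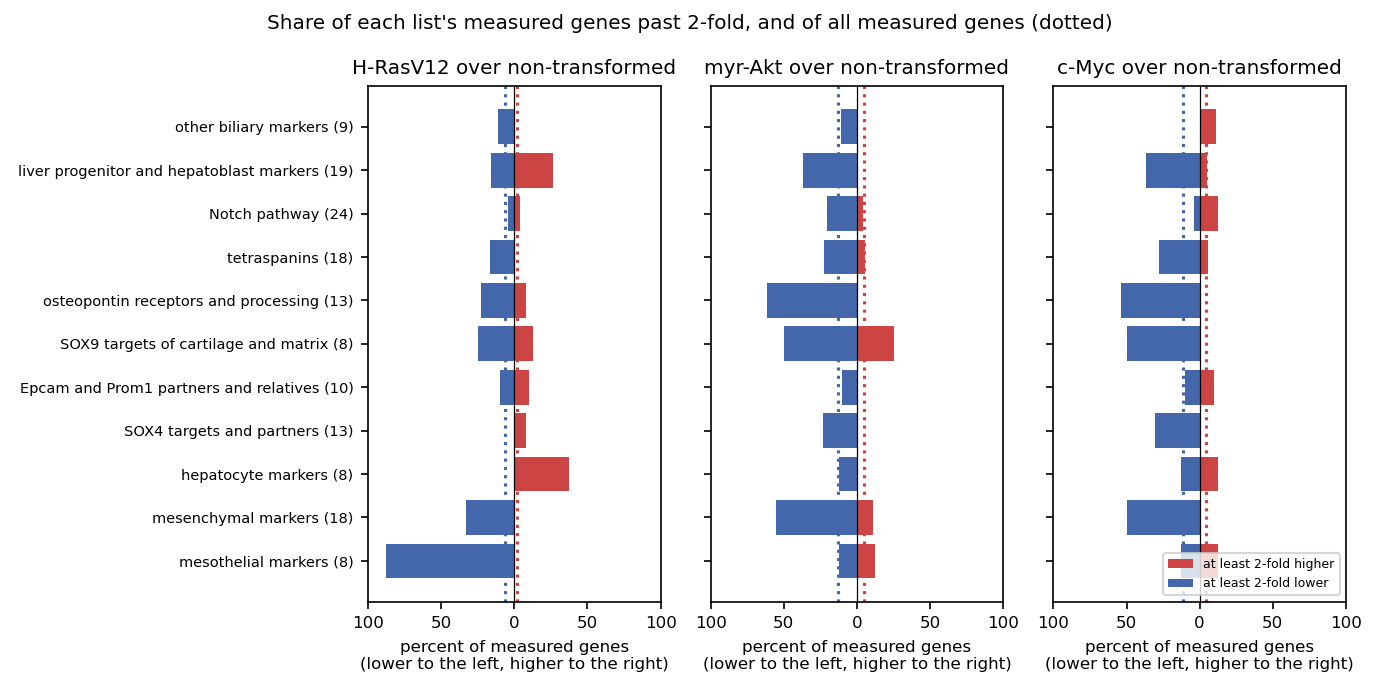
Percent of the measured genes of each list (number measured in brackets) that were at least 2-fold higher (red, right) or lower (blue, left) in each comparison with non-transformed cells, for lists with 8 or more measured genes. Dotted lines give the same share of all measured genes. Of the osteopontin receptor list, 8 of 13 genes lie to the left in myr-Akt and 7 of 13 in c-Myc cells, and of the mesothelial list 7 of 8 in H-RasV12 cells.

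Markers of other cells moved beside Sox9 and Tspan8. Of 18 measured mesenchymal markers, 6 were lower in H-RasV12, 10 in myr-Akt and 9 in c-Myc cells, and 2 were higher in myr-Akt cells. Of all genes, 6.27%, 12.7% and 11.3% were lower in these cultures, and 4.9% were higher in myr-Akt cells. The summed signal of the mesenchymal markers was 123822, 108137 and 96794 in H-RasV12, myr-Akt and c-Myc cells, against 183739 in non-transformed cells. Prrx1, a mesenchymal transcription factor, was 8.35 times lower in myr-Akt and at least 19.3 times lower in c-Myc cells, but 1.58 times higher in H-RasV12 cells. Others of the list ran differently. Dcn, the decorin gene, was 60.8 times lower in H-RasV12 cells and 1.10 and 1.35 times lower in myr-Akt and c-Myc cells. Col6a2, a collagen gene, was 8.33 times lower in H-RasV12, 2.64 times higher in myr-Akt and 1.39 times lower in c-Myc cells. Of 8 mesothelial markers, 7 were lower in H-RasV12 cells, and 1 was lower and 1 higher in each of myr-Akt and c-Myc cells. Of all genes, 4.42% were higher in c-Myc cells. The marker lower in myr-Akt and c-Myc cells was Msln, the mesothelin gene, by 32.9 and 22.5 times. The marker higher there was Krt14, by at least 2.48 and at least 6.75 times. Gpm6a was 1.58 and 1.82 times higher in these cultures and Lrrn4 1.26 and 1.29 times lower, short of 2-fold. Of 8 measured hepatocyte markers, 3 were higher in H-RasV12 cells, against 2.08% of all genes. Sox9 and Cd24a were higher there too. Of 10 endothelial markers, 2 were measured, of which Flt1 was 2.33 times higher in H-RasV12 cells, and Pecam1 and Cdh5 were under the floor on every array. The part of these markers in the member differences was not tested, and in RNA of a whole culture fewer cells of a type and less RNA per cell cannot be told apart.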

How the data were processed

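RNA was measured on 4 single-colour mouse expression arrays, 1 per culture, from 1 µg of total RNA labelled with biotin. The authors deposited one linear intensity per probe set. MAS5 is the tool that the submitters' processing notes name, and the sources used here give no version or filter for it. The deposited intensity values had a 2% trimmed mean of 500.003 on every array. From them, arrays were brought to the common trimmed mean, any intensity under 20% of it was raised to that level, the floor, before taking log2. Values at the floor have no order, and a difference with 1 side there is a bound.

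Of 45101 probe sets, 34945 had 1 symbol in the platform annotation, 932 several, 9160 none here, and 64 were controls. Symbols were matched by Entrez identifier to the RefSeq table for 34741 probe sets, and 0 symbols changed. The probe set with the highest mean intensity stood for each gene. The endings _s_at and _x_at mark probe sets shared between transcripts. Of 18193 genes, 10679 passed the floor on at least 1 array.

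A call is a difference of 2-fold or more. There is no replicate, so no test, error or p-value was computed. Precision is limited by the number of arrays. The calling step was tested on simulated data, with changes planted well past 2-fold in genes well above the floor. Calls at the edge of 2-fold or at the floor were not covered by it. The members and the gene lists were chosen with earlier results of these data known. Lists leave out the 7 members, and some genes stand in more than 1 list. Beside the members, genes were named by a rule. It took up to 4 per list with the widest differences from non-transformed cells and the 3 genes most like each member that spanned 2-fold. Not every gene of the rule is given, and Krt19, Krt14, Bmpr1b and Opn3 were named outside it. Cell type markers under the floor were named besides. No batch, slide or date was given in the labels. Alternatives were 2 other floors, a pseudocount of 50, quantile normalization, median scaling, the mean over probe sets, and probe sets without the _s_at and _x_at endings. Python 3.11.15 with pandas 2.3.3 and NumPy 2.4.6 was used.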

Additional observations from a re-analysis of the deposited data

How the results depend on the processing

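Under 7 alternatives, 204 log2 differences of the 5 measured genes were recomputed, of which 197 kept their side of 2-fold, 5 fell short of it and 2 newly passed it. Of those past 2-fold in either setting, 0 changed sign. Of those under 2-fold, 4 changed sign. For Sox4 in myr-Akt over non-transformed cells, median scaling gave 0.01 and the mean over probe sets 0.0002, in place of -0.02. For Epcam, leaving out _s_at and _x_at probe sets gave 0.15 both for H-RasV12 over non-transformed and for H-RasV12 over myr-Akt cells, in place of -0.16 and -0.84. With the floor raised to 40%, the count of members at least 2-fold lower was 1 in myr-Akt and 1 in c-Myc cells, since the bound on Sox9 shrank to -0.96 by the floor's own height. With log2(signal + 50) the count at least 2-fold higher in H-RasV12 cells was 1, with Sox9 at 0.92, and with the mean over probe sets it was 1, with Sox9 at 0.73, a mean that takes in the probe set under the floor on every array. That mean also put Cd24a at 0.79 for H-RasV12 over c-Myc cells, and Tspan8 at -1.50 in myr-Akt and -1.49 in c-Myc cells against non-transformed cells, in place of -4.07 and -4.00, since its dimmer probe sets were at the floor in both. With a floor at 10%, Epcam passed 2-fold between H-RasV12 and myr-Akt (-1.25) and between myr-Akt and c-Myc (1.09). Quantile normalization, median scaling and leaving out _s_at and _x_at probe sets changed no call of the members in these comparisons. No paired analysis was possible because each culture has 1 array. Signals near the floor limit Epcam, Prom1 and the lower side of Sox9. For the lower side of Sox9 only bounds can be had, and for Prom1 no difference. For Epcam, by its brighter probe set, only myr-Akt over non-transformed cells (0.67) had both arrays above the floor.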
